A study of Mus musculus with 4 samples.

Results

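Haematopoietic stem cells (HSCs) with a broad transcriptome are the cells of each sequencing library in which the most different genes were found at equal depth. Cells with at least 30000 counts were thinned at random to 30000 counts each, and the genes with at least 1 count were counted. Members were chosen by this count alone. The 66 cells in the highest 25% of their own library are called broad and the 66 cells in the lowest 25% are called narrow, out of 264 cells ranked and 297 in the table. Libraries 1 to 4 gave 18, 16, 16 and 16 cells to each side. All cells came from the bone marrow of wild-type mice at 8 weeks of age, kept under homeostatic conditions with no treatment. They were sorted as lineage-negative, Kit-positive and Sca-1-positive cells that carried CD150 and EPCR (CD201) and lacked CD48. Both CD27-negative and CD27-positive cells of this phenotype (ESLAMSK) went into every library. No source used here ties a single cell to its gate, so no cell was placed in one. The strain, the number of mice and whether each library had mice of its own are not given either.

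HSCs sustain blood formation and spend most of their time out of the cell cycle, with little protein synthesis, few active mitochondria and small cell size. A cell that enters the cycle gains volume and total RNA, and switches on growth genes such as those for ribosome biogenesis and, later, DNA replication. The number of different transcripts found in a single cell depends on how many genes are transcribed, on how evenly RNA is spread over them, and on how much of the cell's RNA was captured.

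Because breadth itself is a count of detected genes, a gene that helped to choose the cells cannot be tested on them. The 13742 genes were therefore placed in 2 gene sets of 6871 with equal totals. Cells were ranked within their library by the genes detected in one set, after that set was thinned to 10000 counts, and only genes of the other set were compared between the resulting broad and narrow cells. Gene levels below are CPM, the thinned counts scaled to a total of 1000000, summed per library and side in this held-out way, as means ± SD over n = 4 libraries. Of the 66 broad cells, 61 and 62 were also broad by either gene set, as were 62 and 62 of the 66 narrow cells among the narrow, and 0 cells changed sides. Across the cells of a library, breadth in the first gene set and in the second had a Spearman rho of 0.971 to 0.987. Cells broad in one set thus detected more genes of the other. Numbers of cells with a count of a gene lean to broad cells by this choice and are descriptions.

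Libraries held 7417147, 8090683, 5265858 and 11215457 counts in 75, 75, 74 and 73 cells. Left out were 17 cells under 30000 counts and 2 runs of 8 consecutively numbered cells, in libraries 2 and 4. The 6 deep enough cells of the run in library 2 detected 1440 to 1798 genes, and the 6 of library 4 detected 1278 to 1945. Had these cells been kept, they would have been ranked among the narrow ones. Cells of different libraries share a number in their names, 89 numbers in all, of which 76 occur in 3 or 4 libraries among the ranked cells, while 0 pairs of cells had identical counts. The p-values below measure the spread between these 4 libraries alone, and that spread may be technical if the libraries share mice.

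Broad cells detected about 1000 more genes than narrow cells at equal depth, which is the rule itself and carries no test. At 30000 counts the broad cells ranged from 2826 to 4334 genes (median 3101.5) and the narrow cells from 1096 to 2418 (median 2051.5). The library medians were 3039.5, 3010.0, 3307.5 and 3198 genes in broad cells and 2086, 1830.0, 2253.5 and 2047 in narrow cells. Breadth has no gap at the thresholds. In library 1 the broad cell with the fewest genes had 2928 and the next cell below it 2917, and the narrow cell with the most genes had 2291 and the next cell above it 2309. The corresponding values were 2826 and 2768, and 2114 and 2157, in library 2. They were 2996 and 2988, and 2418 and 2424, in library 3. They were 2870 and 2858, and 2302 and 2346, in library 4. With more genes in the same 30000 counts, a detected gene has fewer counts, which restates the rule. A detected gene had a median of 5, 6, 5 and 5 counts in the broad cells of libraries 1 to 4 and of 9, 11, 8 and 9 in the narrow cells. The 10 most abundant genes of a cell took a median of 6.72% ± 0.20 of its counts in broad cells and 8.04% ± 0.064 in narrow cells.

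**Figure D1:**
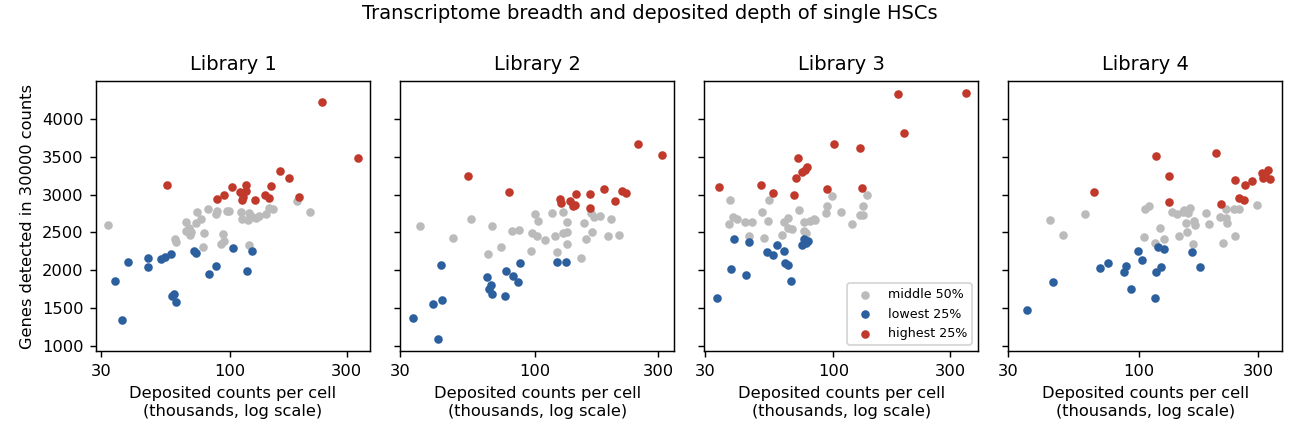
Each point is 1 of the 264 ranked cells, with its deposited counts on a log axis in units of 1000 counts and the genes detected in 30000 counts on the vertical axis, in 1 panel per library. Red points are the highest 25% of each library and blue points the lowest 25%. The red cells lie at or above 2826 genes and reach farther right, and the cell with the most genes, 4334, is in library 3.

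Broad cells also had more deposited counts before thinning, in every library. In library 1 the median broad cell had 121868 counts and the median narrow cell 58810.5. The medians were 153560.0 and 67809 in library 2, 77144.5 and 61006.5 in library 3, and 257098 and 100894 in library 4. The difference of the log2 medians was 1.05, 1.18, 0.34 and 1.35, a mean of 0.98 ± 0.44 (SD, n = 4), with an exact two-sided sign-flip p of 2 in 16, the smallest that 4 libraries allow. Single cells overlapped, with broad cells from 34033 to 346876 counts and narrow cells from 33383 to 174865. Across the cells of a library, breadth and deposited counts had a Spearman rho of 0.672, 0.615, 0.468 and 0.607. Of the broad cells, 2 of 66 had over 3 times the median count of their library, and of the narrow cells 0 of 66. Whether breadth and depth differ through the RNA content of a cell or through its capture was not tested.

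Mitochondrially encoded transcripts took a smaller share of the counts in broad than in narrow cells. The share in the median cell was 1.31% ± 0.088 in broad and 1.59% ± 0.11 in narrow cells (SD, n = 4). The differences were -0.34, -0.04, -0.29 and -0.45 percentage points in libraries 1 to 4, all in the same direction (exact two-sided sign-flip p of 2 in 16). Broad cells did not stand below the middle cells everywhere. The cells between the sides had medians of 1.44%, 1.33%, 1.56% and 1.290%, and broad cells 1.24%, 1.44%, 1.27% and 1.285%. Across the cells of a library, breadth and this share had a Spearman rho of -0.43, -0.098, -0.154 and -0.216. The share of ribosomal protein transcripts was 20.4% ± 0.60 in broad and 20.2% ± 1.4 in narrow cells. Its differences of 1.19, 0.31, 0.25 and -1.13 percentage points had no common sign (exact two-sided sign-flip p = 0.625).

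Of 6682 genes tested, 2 fell in broad cells (0.0299%) and 0 rose (0.0%) at an adjusted p below 0.05 (edgeR quasi-likelihood test with library as block, Benjamini-Hochberg adjustment over all genes). At an unadjusted p below 0.05, 287 genes were higher (4.3%) and 195 lower (2.92%). In 4 of 4 libraries, 615 genes were higher (9.2%) and 494 lower (7.39%). The median log2 change over all genes was 0.15, and 3890 genes (58.2%) had a fitted change above 0. Weakly expressed genes leaned toward broad cells and strongly expressed ones did not, which the choice of cells can give. Broad cells were chosen for detecting more genes, and breadth in the first gene set went with breadth in the second. The filter on low counts, given below, also leaned this way. Of the 6682 genes, 371 passed it almost only through broad sums and 234 almost only through narrow sums. The lean, the median of 0.15 and the 58.2% are therefore descriptions. The median log2 change was 0.51 over the 1248 genes at 10 to 30 CPM, 0.15 over 3518 genes at 30 to 100, 0.10 over 1415 genes at 100 to 300, 0.02 over 378 genes at 300 to 1000, and -0.02 over the 123 genes above 1000. The share with an unadjusted p below 0.05 also rose with level. It was 2.24%, 2.87%, 6.78%, 11.6% and 14.6% higher in these 5 ranges, and 0.321%, 1.88%, 4.52%, 9.26% and 21.1% lower. Counts over the gene lists below are read beside these shares, and lists of strongly expressed genes have a high background. DESeq2 on the same sums called 49 genes higher (0.733%) and 45 lower (0.673%), and all 94 had the same sign and an unadjusted p below 0.05 in edgeR.

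B2m, which encodes the light chain shared by all MHC class I molecules, fell in broad cells and was the gene with the smallest p. It lies on chromosome 2 at 122147686 to 122153083 on the plus strand (GRCm38, GENCODE M21, protein coding). Its level in broad cells was 10000, 10246, 10135 and 9558 CPM in libraries 1 to 4, and in narrow cells 13061, 13727, 13077 and 12850.0 CPM. The highest broad value lay below the lowest narrow one, and all 66 cells of each side had a count. The log2 change was -0.41 (SE 0.042, edgeR adjusted p = 0.000426). It held in 17 of 23 alternative settings, with changes from -0.67 to -0.26 over all of them. The call was lost without library 2 (edgeR adjusted p = 0.0879), without cells that had a count of a cycling gene (0.0733), with depth taken out of breadth (0.100), with breadth taken relative to cells of the same number in other libraries (0.147), with cells thinned to 50000 counts (0.284) and with the runs of 8 cells put back (0.325).

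Rps27, a protein of the small ribosomal subunit on chromosome 3 at 90212522 to 90213651 on the minus strand, was the other gene that fell. Its levels were 5913, 5925, 6104 and 5465 CPM in broad cells and 7863, 7913, 6977 and 7831 CPM in narrow cells, again without overlap. The log2 change was -0.40 (SE 0.062, edgeR adjusted p = 0.0428), and it passed in 8 of 23 alternatives. Ribosomal protein genes have many processed pseudogenes, and no source used here says how reads shared by such copies were counted, so the values of this gene and of Rps2 below are uncertain.

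Hlf and Wfdc2, also among the lower genes with the smallest p, did not pass the threshold. Hlf encodes a PAR-domain bZIP transcription factor that marks HSCs and is needed for their maintenance. It stood at 326, 317, 233 and 317 CPM in broad cells and at 669, 754, 667 and 571 CPM in narrow cells, without overlap (log2 -1.17, SE 0.20, edgeR adjusted p = 0.0541). A count of Hlf was found in 52 of 66 broad and 58 of 66 narrow cells. Wfdc2, which encodes a secreted WAP-domain protein, stood at 42.6, 14.6, 2.08 and 0 CPM in broad cells and at 194, 235, 117 and 304 CPM in narrow cells, in 8 of 66 and 24 of 66 cells. Its fitted log2 change of -4.32 (SE 0.76, edgeR adjusted p = 0.0631) depends on the small count added before taking logs, since 1 library had 0. Both genes were lower in each of the 4 libraries.

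On the higher side, the 5 genes with the smallest p were Cfl1, Ldha, Stmn1, Tuba1b and Rps2, and none passed the threshold. Cfl1 encodes cofilin, which severs actin filaments. Its level was 1563, 1548, 1554 and 1448 CPM in broad cells and 996, 1013, 996 and 954 CPM in narrow cells, with wide separation and little spread (log2 0.62, SE 0.12, edgeR adjusted p = 0.100). Ldha, the lactate dehydrogenase subunit of glycolysis, stood at 900.0, 1015, 890 and 1071 CPM in broad cells and at 546, 369, 573 and 592 CPM in narrow cells (log2 0.90, SE 0.19, edgeR adjusted p = 0.110). Stmn1, which encodes the tubulin-binding protein stathmin, stood at 793, 823, 1290 and 698 CPM against 469, 531, 460.4 and 429 CPM (log2 0.87, SE 0.20, edgeR adjusted p = 0.133). For Stmn1 the broad cells of library 3 stood above those of the other libraries. Tuba1b, an alpha-tubulin, stood at 709, 481, 906 and 688 CPM against 359, 354, 290 and 335 CPM (log2 1.02, SE 0.22, edgeR adjusted p = 0.133). Rps2, of the small ribosomal subunit, stood at 2472, 2440, 2460 and 2948 CPM against 1852, 1735, 1723 and 2096 CPM (log2 0.46, SE 0.10, edgeR adjusted p = 0.133). None of the 5 genes overlapped between the sides. These 5, like Hlf and Wfdc2, were picked by their p, so such separation goes with the pick. The share of all genes that separate was not counted. DESeq2 on the same sums called all 5, with Hlf and Wfdc2.

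**Figure D2:**
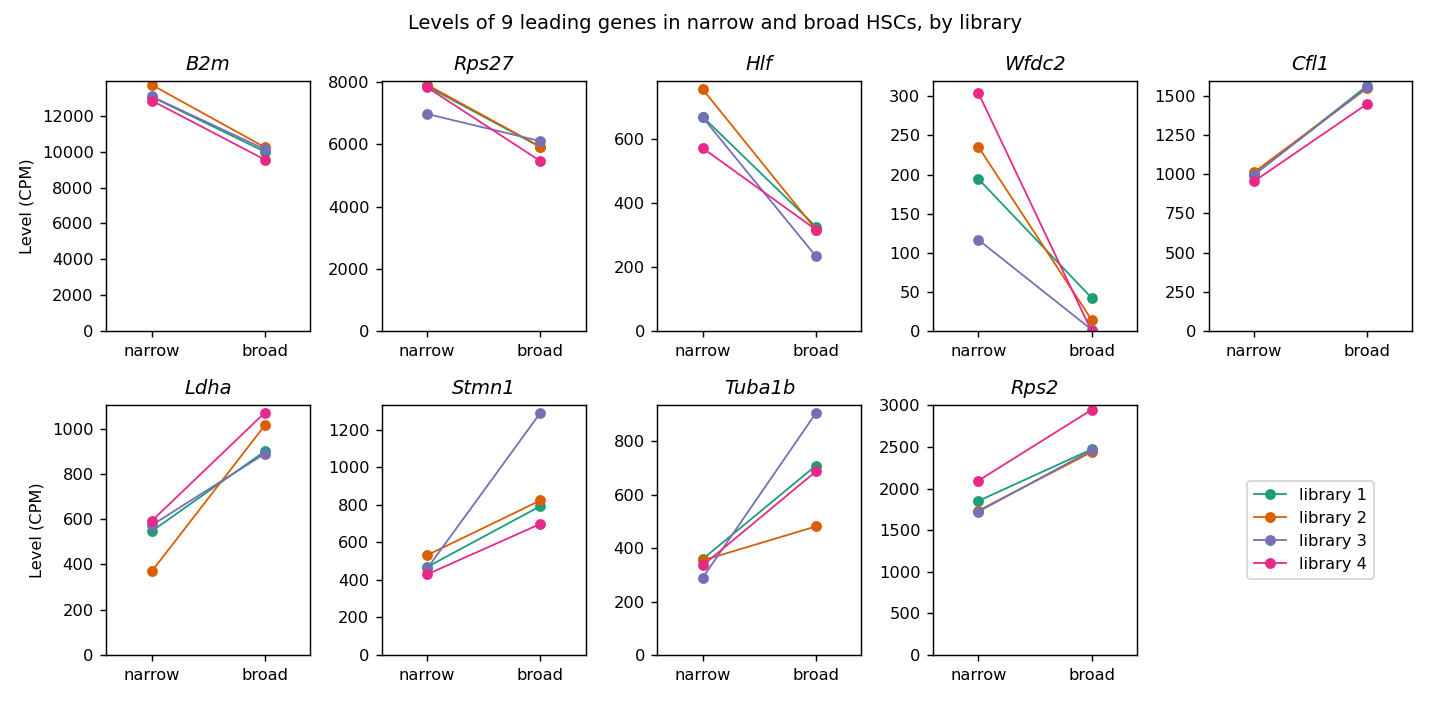
Level in CPM of 9 genes among those with the smallest p, 4 lower and 5 higher, in narrow and broad cells. Each line joins the 2 sides of 1 library and every axis starts at 0. In all 9 panels the 4 lines slope the same way, which goes with the pick by p. Only B2m and Rps27 passed the adjusted threshold.

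Genes that define HSCs were, as a list, lower in broad cells. The summed level of 31 HSC identity genes was 11530, 12156, 10415 and 11996 CPM in the broad cells of libraries 1 to 4 and 13552, 14323, 14725 and 14571 CPM in the narrow cells. The sums did not overlap and their means of 11524 ± 786 and 14293 ± 521 CPM differed by 19.4%. Of 29 members tested, 0 passed the threshold and 8 had a fitted change above 0. At an unadjusted p below 0.05, 7 were lower and 1 higher. Among all genes 2.92% were lower and 4.3% higher, and among those at 300 to 1000 CPM 9.26% and 11.6%. How often sums of other genes separate was not counted. The median log2 change was -0.20 against 0.15 over all genes. The 3 members with the highest level were Ifitm1 at 2744 ± 502 and 3380.2 ± 273 CPM (log2 -0.33), Ifitm3 at 1726 ± 190 and 1878 ± 341 CPM (log2 -0.13), and Txnip at 1297 ± 206 and 1526 ± 204 CPM (log2 -0.25), broad before narrow. Ifitm1 and Ifitm3 encode interferon-inducible membrane proteins and Txnip an inhibitor of thioredoxin and of glucose uptake.

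Members named from here on outside the 3 highest of each list were chosen after their values were seen. Besides Hlf and Ifitm1, the lower members at an unadjusted p below 0.05 were Mllt3 (log2 -0.62), Hoxa9 (-0.86), Pdzk1ip1 (-0.66), Gata2 (-0.63) and Lmo2 (-0.50). Mllt3 encodes a reader of acylated histones, and Hoxa9, Gata2 and Lmo2 encode transcription regulators of stem and progenitor cells. Esam, an endothelial and HSC adhesion molecule, was the higher one, at 270 ± 76 and 150.2 ± 94 CPM (log2 0.96). Meis1 stood at 437 ± 91 and 419 ± 98 CPM and Mecom at 217 ± 49 and 282 ± 67 CPM. For several genes, Gata2 and Hoxa9 among them, level and detection moved in opposite directions. Broad cells were chosen for detecting more genes, so this is not read as a trait of these genes. Mecom, with a lower level, had a count in 61 of 66 broad and 52 of 66 narrow cells, and Egr1 in 62 and 47. For Hlf the level and the cells with a count were both lower in broad cells. Gata2 had a lower mean level in broad cells, at 188 and 292 CPM, but a count in 53 of 66 broad and 35 of 66 narrow cells. Hoxa9 likewise stood at 113 and 200.5 CPM but was found in 42 of 66 and 28 of 66 cells. No order of expression is read from shares that go against the levels. With depth taken out of breadth, the HSC identity sum was 11537 CPM in broad and 14150.1 CPM in narrow cells, at log2 differences of -0.28, -0.23, -0.38 and -0.30 in libraries 1 to 4.

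The surface antigens selected for in the sort had transcripts on both sides, and Cd48, selected against, had none. Over the list of 6 the sum was 1172 ± 173 CPM in broad and 1510.1 ± 101 CPM in narrow cells, lower in 4 of 4 libraries. It was so in 10 of 14 other ways of choosing the cells. The transcript of Sca-1, Ly6a, was at 511 ± 147 CPM in broad and 785 ± 172 CPM in narrow cells (log2 -0.65, edgeR adjusted p = 0.512). Kit stood at 190 ± 15 and 221 ± 90 CPM and Procr, which encodes EPCR, at 250 ± 55 and 283 ± 91 CPM. Slamf1, which encodes CD150, stood at 40.2 ± 16 and 42.6 ± 74 CPM, and the fitted change had the opposite sign to these means. Cd48 had a count in 0 of 66 cells of each side. That bounds no share of expressing cells. Slamf1, which was selected for, had a count in only 12 of 66 broad and 9 of 66 narrow cells. Cd27, the antigen the study gates on, stood at 187, 142, 254 and 142 CPM in broad cells and at 241, 148, 123 and 200 CPM in narrow cells, overlapping fully. Its log2 change was 0.01 (SE 0.35, edgeR adjusted p = 0.997), with a count in 40 of 66 broad and 30 of 66 narrow cells. The sign for Cd27 was negative in 11 of 23 alternatives and that of Kit positive in 2.

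The 3 most abundant class I genes had lower mean levels in broad cells, and of the list only B2m passed the threshold. The summed level of the 15 genes for MHC class I and peptide loading was 19901 ± 966 CPM in broad and 23901 ± 694 CPM in narrow cells, lower in 4 of 4 libraries, at log2 differences of -0.17, -0.29, -0.31 and -0.29. H2-K1, a classical class I heavy chain, stood at 3909 ± 437 and 4819 ± 218 CPM (log2 -0.32, edgeR adjusted p = 0.155). H2-D1, the other one, stood at 2746 ± 276 and 3225 ± 251 CPM (log2 -0.25, edgeR adjusted p = 0.586), lower in 3 of 4 libraries. Tapbp, which encodes tapasin of the loading complex, stood at 261 ± 20 and 150.3 ± 68 CPM (log2 0.88, edgeR adjusted p = 0.569), higher in 3 of 4 libraries. Pdia3, another member of the complex, stood at 575 ± 98 and 403 ± 41 CPM (log2 0.48, edgeR adjusted p = 0.655). Tap1 had a log2 change of 0.19 (edgeR adjusted p = 0.962). Of 13 members tested, 1 passed as lower, which is B2m, and at an unadjusted p below 0.05, 3 were lower and 2 higher. The median log2 change of the list was 0.19, opposite in sign to its sum, which the 3 abundant genes dominate. H2-K1 and H2-D1 are close paralogs, and no source used here says how reads shared by them were counted.

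Mitochondrially encoded transcripts were lower in broad cells in all 4 libraries, and nuclear genes of the same respiratory complexes were not. The 13 mitochondrial genes summed to 12893, 14242, 13289.6 and 12496 CPM in broad cells and to 18663, 17788, 15273 and 17221 CPM in narrow cells. Of 11 tested, 0 passed, 7 were lower and 0 higher at an unadjusted p below 0.05, and the median log2 change was -0.50. Among all genes at 300 to 1000 CPM 9.26% were lower at that p, and among those above 1000 CPM 21.1%. The highest, mt-Cytb of complex III, stood at 4578 ± 213 and 5568 ± 353 CPM (log2 -0.29, edgeR adjusted p = 0.152). The next, mt-Nd1 and mt-Nd4 of complex I, had log2 changes of -0.21 and -0.41. The member with the smallest p was mt-Co1, of cytochrome c oxidase, at 1194, 1427, 1323 and 1408 CPM in broad and 2211, 2177, 1583 and 2242 CPM in narrow cells (log2 -0.62, edgeR adjusted p = 0.100). With depth taken out of breadth, the mitochondrial sum was 14057 CPM in broad and 16621 CPM in narrow cells, lower in 4 of 4 libraries. Of 72 nuclear genes of oxidative phosphorylation tested, 8 were higher and 0 lower at an unadjusted p below 0.05, with a median log2 change of 0.18 against 0.15 over all genes. The 8 are near the 11.6% of all genes at 300 to 1000 CPM that were higher. Their sum was 25821 ± 2133 and 23009 ± 1946 CPM, higher in 3 of 4 libraries. The highest, Cox4i1, Atp5a1 and Cox6b1, had log2 changes of 0.02, 0.38 and 0.19, and Atp5g1, of the ATP synthase ring, one of 1.02. In the glycolysis list Ldha was the 1 gene of 18 with an unadjusted p below 0.05. Aldoa stood at 693 ± 10 and 784 ± 176 CPM and Pkm at 696 ± 122 and 527 ± 75 CPM.

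DNA replication genes stood higher in broad cells, most of all in library 3. The summed level of 27 genes was 1919, 1788, 4704 and 1335 CPM in broad cells and 1226, 956, 1185 and 981 CPM in narrow cells, higher in 4 of 4 libraries. The ratio of the means was 2.24, and 1.59 without library 3. With depth taken out of breadth the log2 differences of the sums were 1.44, 0.82, 2.01 and 0.08. Of the 27 genes, 20 passed the filter of at least 10 counts in 4 of the 8 sums. Of these, 4 did so with 10 counts in at most 1 narrow sum, as did 371 of all 6682 genes tested, so the median log2 change of 1.12 over the 20 is a description and supports nothing. Among them 6 were higher and 0 lower at an unadjusted p below 0.05, beside 4.3% and 2.92% of all genes, and 0 passed the threshold. Those 6 include Mcm2 and Mcm5, which are among the 4, so the count of 6 is a description too. Dut, which removes dUTP, stood at 260.5 ± 156 and 149 ± 25 CPM. Mcm6, of the replicative helicase, stood at 254 ± 98 and 125 ± 38 CPM (log2 0.97), and Pcna, the sliding clamp of the polymerases, at 253 ± 152 and 112 ± 46 CPM (log2 1.11). Mcm2, of the same helicase, stood at 64.8, 70.8, 169 and 75.0 CPM in broad cells and at 7.41, 0, 41.7 and 12.5 CPM in narrow cells. It had a count in 27 of 66 broad and 4 of 66 narrow cells (edgeR adjusted p = 0.244). Mcm7 differed little, at 88.1 ± 53 and 74.0 ± 40 CPM.

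Genes of G2 and mitosis also had higher sums in broad cells. Their sum was 2098, 906, 2650.0 and 1335 CPM in broad and 922, 748, 923 and 1113 CPM in narrow cells, a ratio of 1.89, and 1.56 without library 3. Of 28 genes 10 passed the filter, 3 of them with 10 counts in at most 1 narrow sum. Among the 10, 2 were higher and 0 lower at an unadjusted p below 0.05, and the median log2 change was 0.64. Both values are descriptions, since Nusap1, 1 of the 2, is among those 3. The highest, Hmgb2, a chromatin protein of dividing cells, stood at 552 ± 311 and 262 ± 89 CPM, Tubb4b at 235 ± 46 and 185 ± 35 CPM, and Smc4, of condensin, at 169 ± 66 and 129 ± 122 CPM. Cdk1, the mitotic kinase, was too low for the test, at 74.9 ± 59 and 0.984 ± 1.1 CPM, with a count in 19 of 66 and 2 of 66 cells. Mki67, a marker of cycling cells, was found in 8 of 66 and 1 of 66. Such cell counts lean to broad cells by the choice of cells. In the list of D cyclins, CDKs and their inhibitors, Cdk4 stood at 321 ± 41 and 165 ± 53 CPM (log2 0.98), Ccnd2 at 975 ± 150 and 872 ± 230.1 CPM, and Cdkn2d at 118 ± 48 and 127 ± 94 CPM.

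Single cells were also read for a count of any of 6 cycling genes (Mki67, Birc5, Ccnb2, Top2a, Cdk1 and Rrm2). These counts use the sides chosen by all genes, so a gene is likelier to be found in broad cells by the choice alone, and they are a description without a test. Such a count was found in 7 of 18, 2 of 16, 9 of 16 and 9 of 16 broad cells of libraries 1 to 4. In narrow cells it was found in 4 of 18, 1 of 16, 3 of 16 and 4 of 16. The cells between the sides had one in 11 of 36, 9 of 32, 14 of 32 and 10 of 32, a larger share than the broad cells in library 2. Free RNA was not measured. At least 3 of the 6 genes were found in 8 broad cells, 5 of them from library 3, in 1 cell between the sides and in 1 narrow cell. Those 8 cells had 3217 to 4334 genes (median 3637), and the other 58 broad cells had 2826 to 3815 (median 3055). They included 5 of the 10 cells with the most genes. Each of those other 58 broad cells had a count of at most 2 of the 6 genes. After cells with any such count were left out, 44 cells remained on each side. The replication sum was then 1339 and 1024 CPM, with log2 differences of 0.69, 0.25, -0.05 and 0.79, and the HSC identity sum 12363 and 14311 CPM, with differences of -0.28, -0.22, -0.21 and -0.13.

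Growth genes had higher sums in broad cells in every library. The 35 genes of the Myc family and ribosome biogenesis summed to 6476, 6173, 6760.4 and 7263 CPM in broad cells and to 5376, 4500.0, 5692 and 6167 CPM in narrow cells, with a median log2 change of 0.49 over 29 tested, of which 4 were higher and 0 lower at an unadjusted p below 0.05. Among all genes at 100 to 300 CPM, 6.78% were higher and 4.52% lower at that p. The 3 highest members moved less than the list. Npm1, a nucleolar chaperone, stood at 1476 ± 150 and 1248 ± 174 CPM, Nop10 at 661 ± 81 and 721 ± 114 CPM, and Ncl, which encodes nucleolin, at 590 ± 91 and 525 ± 101 CPM. Myc itself stood at 356 ± 173 and 187 ± 31 CPM (log2 0.82) and Mycn at 259 ± 37 and 147 ± 96 CPM (log2 1.02).

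Translation factors summed to 15291 ± 254 and 13792 ± 157 CPM, with no overlap between the sides. Of 31 tested, 5 were higher and 4 lower at an unadjusted p below 0.05, beside 11.6% and 9.26% of all genes at 300 to 1000 CPM. The higher ones included Eif5a at 1426 ± 65 and 937 ± 43 CPM (log2 0.59, edgeR adjusted p = 0.137), Eif1 (log2 0.29) and Eef1a1 (log2 0.27), and the lower ones Pabpc1, the poly(A)-binding protein (log2 -0.53). The 35 proteasome genes tested had a median log2 change of 0.33 and a sum of 9548 ± 236 and 7961 ± 796 CPM. At an unadjusted p below 0.05, 6 were higher and 0 lower, beside 6.78% and 4.52% of all genes at 100 to 300 CPM. Psmb8, of the immunoproteasome, stood at 625 ± 79 and 656 ± 61 CPM and Psme1, of its activator, at 570 ± 78 and 414 ± 119 CPM. Splicing genes summed to 14502 ± 300.0 and 13278 ± 470.1 CPM, with 6 higher and 1 lower of 38 tested at an unadjusted p below 0.05. The lower one was the highest member, the helicase Ddx5, at 2086 ± 389 and 2612 ± 426 CPM. For splicing genes too, the share of all genes at 300 to 1000 CPM was 11.6% higher and 9.26% lower. Mediator and RNA polymerase II genes had a median log2 change of 0.22 over 37 tested and chromatin regulators one of 0.06 over 35, beside 0.15 for all genes. Ribosomal protein genes were level as a list, with a median of 0.02 over 80 tested and sums of 201045 ± 6407 and 201000.0 ± 8230.3 CPM. At an unadjusted p below 0.05, 10 were higher and 6 lower, beside 14.6% and 21.1% of all genes above 1000 CPM. The sums of ribosome biogenesis and translation genes were higher in 4 of 4 libraries in 14 of 14 other ways of choosing the cells. Those of replication and proteasome genes were so in 13 of 14, splicing genes in 12, Mediator and RNA polymerase II genes in 10, glycolysis genes in 9, G2 and mitosis genes in 7 and interferon response genes in 6. With depth taken out of breadth, the median log2 change was 0.08 for translation, 0.08 for splicing and -0.05 for glycolysis genes. Beside 0.10 over all genes in that setting, ribosome biogenesis genes had 0.32, proteasome genes 0.24 and Mediator and RNA polymerase II genes 0.21.

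**Figure D3:**
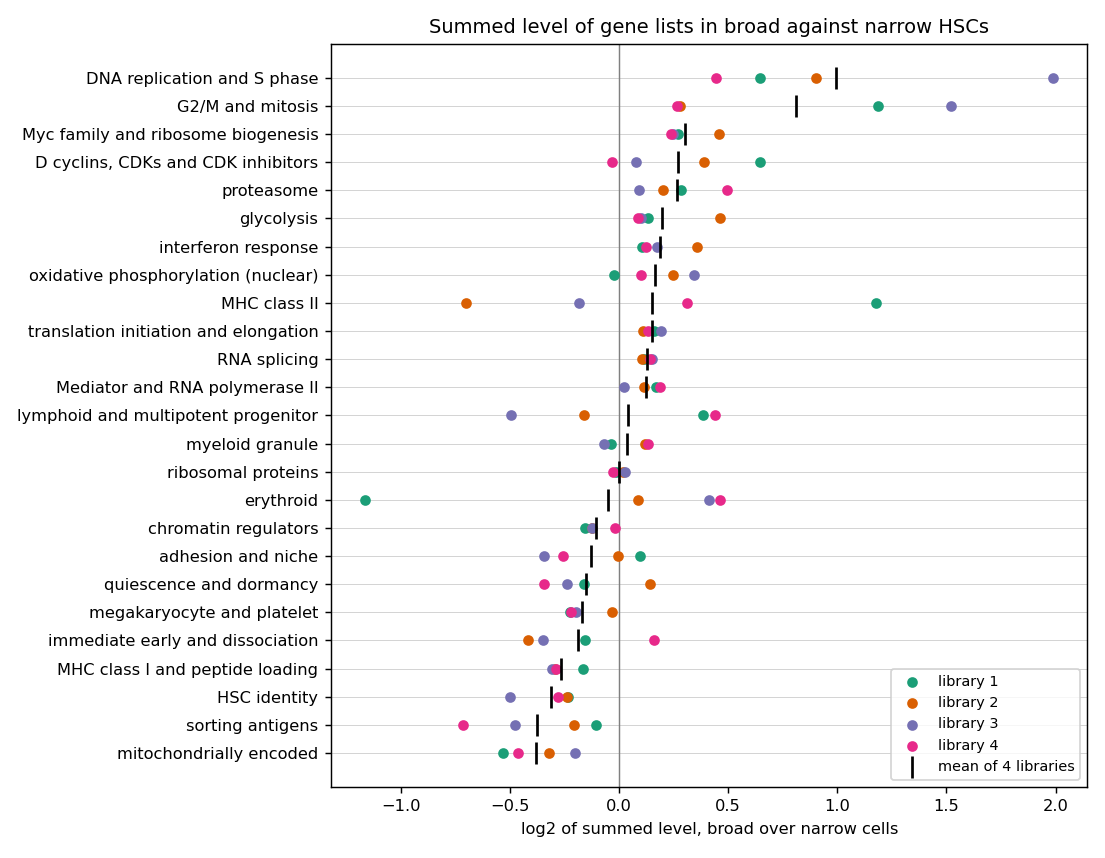
Log2 ratio of the summed level of each gene list, broad over narrow cells, with 1 coloured point per library and a black bar at the mean of the 4 libraries. Points right of the line at 0 are higher in broad cells. Replication genes lie farthest right with library 3 apart, followed by mitosis genes, for which libraries 1 and 3 lie right of libraries 2 and 4. Ribosome biogenesis, translation, splicing and proteasome genes lie right of 0 in all 4 libraries, and HSC identity, class I and mitochondrially encoded genes lie left of 0 in all 4.

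Lists of quiescence, stress and lineage gave smaller or mixed differences. The dormancy list had a median log2 change of -0.12 over 15 tested, with 2 lower at an unadjusted p below 0.05. Its highest members were Apoe at 1485 ± 404 and 1623 ± 392.2 CPM, Ltb at 670.3 ± 214 and 726 ± 248 CPM, and the immediate early factor Egr1 at 413 ± 84 and 601 ± 129 CPM (log2 -0.55, lower in 4 of 4 libraries). Immediate early genes, which cell isolation can induce, had 6 lower and 2 higher of 22 at an unadjusted p below 0.05. Among all genes at 300 to 1000 CPM 9.26% were lower and 11.6% higher, and above 1000 CPM 21.1% and 14.6%. Fos stood at 4338 ± 1017 and 5477 ± 1514 CPM, Jun at 3879 ± 498 and 4085 ± 775 CPM, and Dusp1 at 1898 ± 562 and 2358 ± 546 CPM. In the megakaryocyte list Gng11 stood at 493 ± 104 and 799 ± 121 CPM (log2 -0.72, edgeR adjusted p = 0.226), and Cd9 at 332 ± 68 and 408 ± 141 CPM. In contrast Gp9, a platelet glycoprotein, stood at 135 ± 94 and 40.5 ± 30 CPM. It had a count in 32 of 66 broad and 9 of 66 narrow cells, a number that leans to broad cells by the choice of cells. The list's median of 0.22 and its sum, lower in 4 of 4 libraries, had opposite signs. Neither was stable. The sum was lower in 4 of 4 libraries in 5 of 14 other ways of choosing the cells. The median ran from -0.15 to 1.00 over 23 alternatives.

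Among lymphoid and progenitor genes, Bcl11a stood at 163 ± 24 and 259 ± 58 CPM, H2-DMa at 311 ± 89 and 161 ± 116 CPM, and Lsp1 at 341 ± 97 and 341 ± 139 CPM. Of the myeloid granule genes, Lyz2 stood at 1061 ± 198 and 752 ± 144 CPM, higher in 4 of 4 libraries, and Prtn3 at 488 ± 104 and 572 ± 170 CPM. S100a8, a calcium-binding protein of neutrophils, stood at 22.7 ± 18 and 168 ± 133 CPM and was lower in 4 of 4 libraries (log2 -2.77, edgeR adjusted p = 0.133). A count of S100a8 was found in 10 of 66 broad and 12 of 66 narrow cells, so its levels rest on few cells. DESeq2 called it lower. Of the 4 myeloid granule genes tested, 1 was higher and 1 lower at an unadjusted p below 0.05. The erythroid list was led by Car2, at 2416 ± 500.4 and 2634 ± 629 CPM, and had 0 of 6 members at an unadjusted p below 0.05. Interferon response genes had a median log2 change of 0.50 over 28 tested. At an unadjusted p below 0.05, 3 were higher and 0 lower, beside 4.3% and 2.92% of all genes. Ly6e, their highest member, stood at 864 ± 171 and 939 ± 149 CPM. In the MHC class II list Cd74, the invariant chain, stood at 417 ± 165 and 557 ± 237 CPM and H2-Aa at 170.2 ± 45 and 211 ± 219 CPM. Of the adhesion and niche genes, Cd63 stood at 692 ± 73 and 712 ± 15 CPM and Itgb1, the beta1 integrin, at 91.0 ± 31 and 133 ± 42 CPM.

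Markers of other cell types were low on both sides. The B cell markers summed to 62.5 to 141 CPM in broad and 70.4 to 123 CPM in narrow cells, nearly all from Cd79b, with 4 of the 7 genes present in the table at 0 on each side. The T and NK cell markers summed to 10.4 to 107 CPM and 0 to 141 CPM, stromal markers to 2.08 to 93.8 CPM and 0 to 77.1 CPM, and macrophage markers to 2.08 to 14.8 CPM and 0 to 77.1 CPM. Vcam1 and the mast cell gene Cpa3 were at 0 in both. Endothelial markers, which HSCs share in part, summed to 588 to 827 CPM and 567 to 950.0 CPM, led by Eng at 251 ± 26 and 244 ± 98 CPM. No doublet caller was run, and per the labels' protocols the sort was gated against doublets.

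The 4 breadth groups run from the narrowest 25% of cells (group 1) to the broadest (group 4), and sums here are means over the 4 libraries. The means of replication, ribosome biogenesis and proteasome genes were close to each other in groups 1 to 3 and higher in group 4. The mean of mitochondrial genes was highest in group 1. Replication genes summed to 1087, 1102, 959 and 2436 CPM in groups 1 to 4, and ribosome biogenesis genes to 5434, 5491, 5554 and 6668 CPM. Proteasome genes summed to 7961, 8264, 8275 and 9548 CPM. The list of D cyclins, CDKs and their inhibitors did not have this shape, at 1519, 1752, 1914 and 1806 CPM. HSC identity genes summed to 14293, 14018, 13590.0 and 11524 CPM and class I genes to 23901, 22859, 22125 and 19901 CPM, so the means of both lists were lower in each successive group. Mitochondrially encoded genes summed to 17236, 14552, 14485 and 13230 CPM. Single libraries could differ from these means. In library 3 the mitochondrial sum was 16444 CPM in group 3 and 15273 CPM in group 1. In library 4 the proteasome sum was 6900, 8444 and 8002 CPM in groups 1 to 3. The values of the middle groups were not tested.

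**Figure D4:**
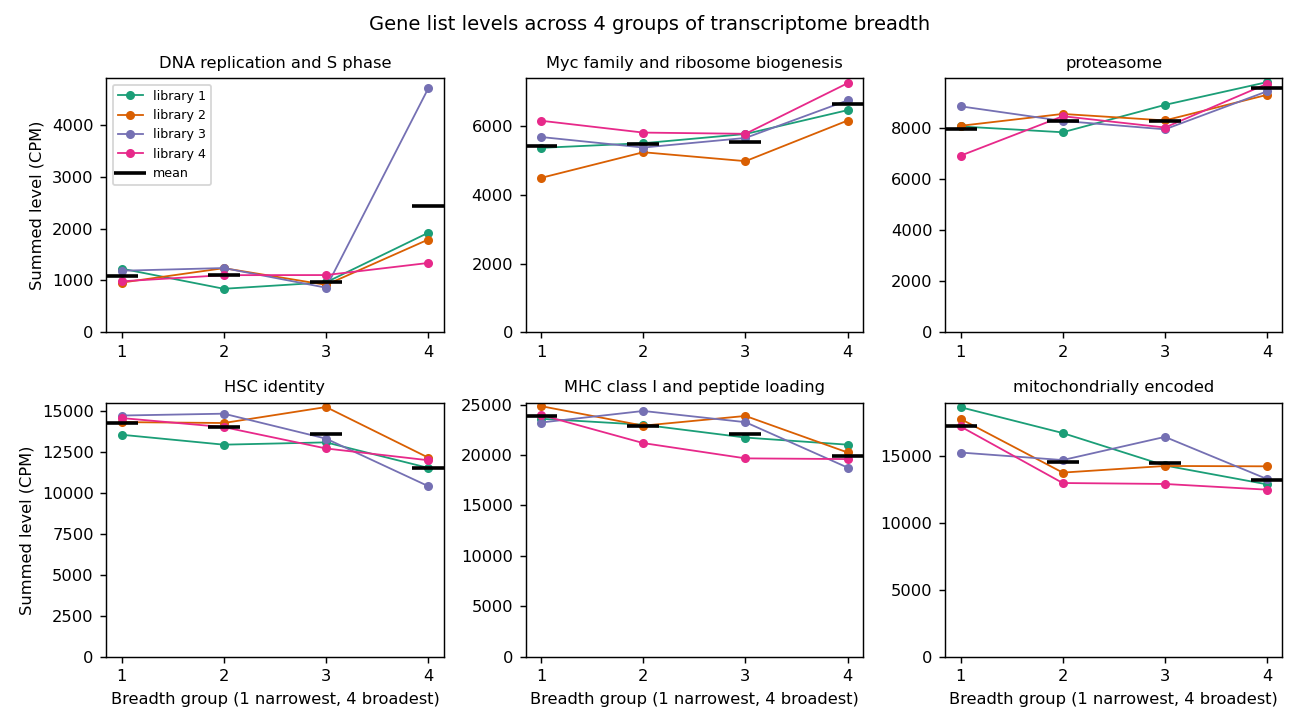
Summed level in CPM of 6 gene lists in the 4 breadth groups of each library, with 1 line per library and black bars at the means, on axes that start at 0. Replication genes stay near 1000 CPM until group 4, where library 3 reaches 4704 CPM, while the means of HSC identity and class I genes step down from group 1 to group 4.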

How the data were processed

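Single HSCs were profiled by a tagged 3′ protocol with 20 cycles of PCR before pooling and 4 after it, per the labels' protocols. The table the authors deposited holds whole-number, unnormalized counts of each gene in each cell. Trimmomatic 0.36, HISAT2 2.1.0, HTSeq 0.9.1 and build GRCm38 are named in the submitters' processing notes. Neither collapsing by molecular identifier nor use of strand is stated, so a count may include PCR copies and is not 1 molecule.

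Cells were placed in libraries by name. Members and gene lists were chosen with earlier results of these data known. Thinning used numpy 2.4.6 with seed 1. Sums of 2 sides by 4 libraries were tested with edgeR 4.0.16 in R 4.3.3 (TMM factors, library as block, quasi-likelihood F test) on genes with at least 10 counts in at least 4 of the 8 sums. P-values of both gene sets were adjusted together by Benjamini-Hochberg at 0.05. Libraries are paired by construction, since both sides come from the same library. DESeq2 1.42.0 served as an alternative. On simulated data the test recovered 3 of 86 genes changed by 1 on the log2 scale (3.5%) and 34 of 86 changed by 2 (39.5%), and called 0 of 5675 unchanged genes. The simulation took its dispersions from a fit with library but without side, and gave all libraries the same mean of a gene. Its recovery may therefore differ from that in the real data. Gene lists were not tested as sets. Named genes are the sorting antigens, the 5 with the smallest p in each direction since fewer than 5 passed, the 3 highest members of each list and the 5 with the largest share of counts on each side. Some genes the rule names are not reported here. Alternatives changed the depth, seed, gene sets, share of cells, detection minimum, cell choice, scaling, filter, tool and block, and left out each library in turn.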

Additional observations from a re-analysis of the deposited data

Results flagged for a closer look

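In 5 of 43 groups of 4 library values, 1 library stood apart from the other 3 by Dixon's test, which chance gives in about 1 of 20 groups. The log2 ratio of summed ribosome biogenesis genes, broad over narrow, was 0.456 in library 2 and 0.236 to 0.269 in the others. For summed glycolysis genes it was 0.461 in library 2 and 0.0887 to 0.132 in the others. For summed megakaryocyte and platelet genes it was -0.0304 in library 2, nearer to 0 than the -0.226 to -0.196 of the others. For summed class I genes it was -0.166 in library 1 and -0.309 to -0.291 in the others. For Stmn1 it was 1.48 in library 3, the library with 5 of the 8 broad cells that had at least 3 cycling genes, and 0.630 to 0.757 in the others. What sets these libraries apart was not tested.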

How the results depend on the processing

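Calls were few and moved with the settings. The count of genes lower in broad cells, 2 in the main test, was 0 with cells thinned to 50000 counts, with the runs of 8 cells put back, with breadth relative to the same number and without cells with a cycling count. It was 1 with thinning seed 2, other gene sets, the highest and lowest 33% or 50% of cells, the cells of the rule itself, deposited counts, depth taken out or no normalization factors. It was 4 with relative log expression factors, 45 with DESeq2, 14 with no filter on low counts, and 0 to 6 on leaving out 1 library, the 0 without library 2 and the 6 without library 3. The count of higher genes, 0 in the main test, was 1 at 20000 counts and with depth taken out, 49 with DESeq2, 28 with no filter, and 0 to 3 on leaving out 1 library, the 3 without library 3. Without the replicate block of library, 0 genes were higher and 3 lower, and the block changed no other call. The ranking by depth-corrected breadth, by same number, without cycling counts and without cells of most counts was added after seeing the data. The ribosomal share difference of 0.15 points became -0.35 with the runs put back, -0.24 at 3 counts for detection, -0.28 by same number, -0.48 without cycling counts and, on leaving out 1 library, -0.19 (library 1) to 0.58 (library 4). The log2 change of Cd27 became -0.27 at 50000 counts, -0.31 with seed 2, -0.082 with other gene sets, -0.33 and -0.21 with 33% or 50% of cells, -0.39 with the runs put back, -0.25 with the rule's cells, -0.24 with deposited counts, -0.012 with relative log expression factors and with DESeq2, and -0.34 to 0.17 on leaving out 1 library. That of Kit became 0.035 without cycling counts and -0.37 to 0.071 on leaving out 1 library, and that of Slamf1 -0.42 by same number and -0.092 without the block. The cause was not tested in any of these. The summed HSC identity and class I genes were lower in 4 of 4 libraries in 14 of 14 choices of cells, and mitochondrially encoded genes in 13 of 14. With 4 libraries the test found few changes of 1 on the log2 scale in simulated data, so a gene short of the threshold is not shown to be level.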

Other observations

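Cells of different libraries that share a number in their names were set side by side. The Spearman rho of deposited counts between cells of the same number was 0.212 to 0.534 over the 6 pairs of libraries, with 44 to 49 numbers in each. For genes detected in 30000 counts it was -0.058 to 0.236 in 5 pairs and 0.525 between libraries 2 and 4. Of the 76 numbers present in 3 or 4 libraries, 4 (13, 21, 22 and 25) were broad in 3 of them, 1 (58) was narrow in 3, and 12 were broad in one library and narrow in another. No source used here says what the number stands for, and these values are a description without a test.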
